A study of Mus musculus with 4 samples.

Results

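The replication-dependent histone genes encode the core histones H2A, H2B, H3 and H4 and the linker histone H1 that package newly copied DNA. They were taken here as the genes whose symbols begin Hist1h, Hist2h or Hist3h and that had at least 10 unique molecular identifiers (UMIs, 1 per captured RNA molecule) over the 4 libraries of the series. Of 66 such symbols 62 were kept, out of 32285 genes in the files, of which 18519 reached the same minimum. They comprise 6 H1, 16 H2A, 16 H2B, 12 H3 and 12 H4 genes. The members with the fewest UMIs were Hist1h1t with 34 and Hist1h3h with 67, and the symbols left out were Hist1h2bq with 5, Hist2h2aa2 with 3, and Hist1h2ba and Hist1h2aa with 0.

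The cells were mouse bone marrow cells sorted as CD45.2+, lineage-negative, Sca1+ and Kit+ (LSK, the fraction that holds blood stem cells and multipotent progenitors), taken 10 weeks after transplantation. CD45.2 is the surface allele carried by the cells of interest. Each of 4 genotypes gave 1 library: control, Mll3 deleted, Mll4 deleted, and Mll3/4 deleted (both). MLL3 and MLL4, encoded by Kmt2c and Kmt2d, are histone H3 lysine methyltransferases that act at enhancers. The deleter strain, the number and age of the animals and any pooling are not given in the sources used here. With 1 library a genotype, a difference between genotypes has no replicate check, the intervals given cover counting error only, and every ratio to control shares the same control library.

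The 4 libraries kept 4568 to 6851 cells and 48049285 to 111781993 UMIs, with a median of 8821 (Mll3/4) to 20809 (Mll4) UMIs per cell, and any pair shared 7 to 12 cell barcodes. Levels are given in CPM, the UMIs of a gene or class scaled to 1e+06 UMIs of its library or state. Kmt2c stood at 68.3 CPM in control and at 35.1, 61.0 and 42.0 in the Mll3, Mll4 and Mll3/4 libraries. Kmt2d stood at 24.4 in control and at 21.5, 22.3 and 25.3. Its level did not set the libraries with Mll4 deleted apart from control and so did not back those labels. Where the tags lie relative to the deleted exons was not examined. The libraries are therefore called by their labels throughout, and Mll4 or Mll3/4 stands for the library so labelled. The 3 defining genes Kit, Ly6a and Ptprc were present in every library, at summed levels of 454, 461, 759 and 633 CPM in control, Mll3, Mll4 and Mll3/4. The Mll4-labelled and Mll3/4-labelled libraries stood apart from the others in markers of other cells. Markers of mast cells, monocytes, mature B or plasma cells and lymphoid cells were taken from lists of 4 genes each. A cell counted as carrying them at 2 or more UMIs over these lists, after random thinning to 3000 UMIs. Such cells made up 54.2% of the Mll4-labelled library, against 2.71% to 4.38% of the other 3. Whether those UMIs came from the cell itself or from stray RNA of other cells was not tested. These marker lists do not cover neutrophils. The 4 neutrophil genes (Camp, Ngp, Ltf, S100a8) summed to 534 CPM in control, 208 in Mll3, 3550 in Mll4 and 2.54 in Mll3/4. All 4 neutrophil genes were lower than control in Mll3 and Mll3/4 and higher in Mll4. The 6 B-cell progenitor genes on the list (Vpreb1, Vpreb3, Igll1, Cd79a, Ebf1, Pax5) summed to 30.4 CPM in control, 263 in Mll3, 32.7 in Mll4 and 11571 in Mll3/4, with all 6 higher than control in Mll3 and Mll3/4.

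Replication-dependent histone genes are switched on together as a cell copies its DNA, so that histone supply follows DNA supply. Their messages mostly lack introns and end not in a poly(A) tail but in a short stem-loop that SLBP binds and the U7 ribonucleoprotein uses to place the cut. Some members also make polyadenylated messages, and a library primed at poly(A), as here, captures the usual form incompletely. For that reason values are compared between libraries and cell states within a gene or class, and differences in level between genes are not read as differences in abundance.

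The stem-loop is the sequence that these genes share. In the GENCODE vM21 transcripts (GRCm38), 41 of 62 members held the histone stem-loop pattern on the transcript strand (16 bases that start with GG and end with CC, with TTT and AG fixed between them), against 668 of 58797 protein-coding transcripts (1.14%). The 6 sequences found are given as DNA letters with the paired stem in capitals and the loop in lower case. Members with no match can have a model that ends before the stem-loop.
Stem-loop of 24 members, among them Hist1h2ap, Hist1h1e and Hist3h2a: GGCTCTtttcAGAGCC
Stem-loop of 6 members, among them Hist1h4d: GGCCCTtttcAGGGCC
Stem-loop of 6 members, among them Hist1h3c: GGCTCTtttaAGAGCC
Stem-loop of 2 members: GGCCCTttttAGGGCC
Stem-loop of 2 members: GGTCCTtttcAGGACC
Stem-loop of 1 member: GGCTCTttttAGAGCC

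The region before the start was also alike in most members. Promoters were matched for 55 members in the RefSeq GRCm38.p6 table (250 bases before to 50 after the start). Searched on both strands, CCAAT, the site of the NF-Y factor, was in 47 of 55 (85.5%), against 37.4% of 32851 promoters of all genes. All matched H1, H2A, H2B and H3 promoters held it, but only 3 of 11 H4 promoters (27.3%). TATAAA was in 32 of 55 (58.2%) against 13.6% of all promoters. The octamer ATTTGCAT, bound by OCT1 (Pou2f1), was in 11 of 55 (20.0%) against 1.74%: 6 of 15 H2A, 5 of 14 H2B and no H1, H3 or H4 promoter. Matches of different motifs were allowed to overlap. Promoter windows of neighbours on opposite strands can also overlap, so that 1 site is counted for both members. This holds for Hist1h2ae (23571171 to 23571470) and Hist1h2bg (23571150 to 23571449), and the counts are thus not of independent promoters. The 170 bases before the RefSeq start are shown for the matched member with most UMIs of H1, H2A, H3 and H4, and for Hist3h2a, the member with the smallest difference between dividing and resting cells. Capitals mark these 3 motifs or their reverse complements.
Hist1h1b, chr13:21780626-21780795, minus strand: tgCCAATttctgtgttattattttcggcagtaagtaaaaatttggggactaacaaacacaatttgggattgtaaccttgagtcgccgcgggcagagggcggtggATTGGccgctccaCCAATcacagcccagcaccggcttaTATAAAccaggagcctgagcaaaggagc
Hist1h2ae, chr13:23571221-23571390, minus strand: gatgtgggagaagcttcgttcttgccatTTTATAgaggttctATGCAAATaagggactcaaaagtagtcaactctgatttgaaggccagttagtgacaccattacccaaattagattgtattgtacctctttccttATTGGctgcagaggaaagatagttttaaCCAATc
Hist1h3c, chr13:23745522-23745691, minus strand: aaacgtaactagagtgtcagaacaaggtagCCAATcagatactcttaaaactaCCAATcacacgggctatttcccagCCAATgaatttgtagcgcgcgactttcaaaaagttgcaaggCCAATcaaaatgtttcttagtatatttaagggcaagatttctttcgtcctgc
Hist1h4d, chr13:23581398-23581567, plus strand: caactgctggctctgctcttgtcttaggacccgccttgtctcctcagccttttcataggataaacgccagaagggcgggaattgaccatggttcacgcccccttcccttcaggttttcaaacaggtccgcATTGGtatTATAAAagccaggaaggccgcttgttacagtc
Hist3h2a, chr11:58954515-58954684, plus strand: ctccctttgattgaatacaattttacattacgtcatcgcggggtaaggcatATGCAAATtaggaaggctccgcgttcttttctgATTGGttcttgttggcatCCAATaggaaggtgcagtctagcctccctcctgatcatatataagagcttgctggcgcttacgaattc

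By position, 51 members lie on chromosome 13 (21715763 to 23764406), 9 on chromosome 3 (96219865 to 96270132) and 2 on chromosome 11 (58948920 to 58956830). Copies within these clusters are near-identical: for 24 members, fewer than 50% of the 90-base windows of the annotated transcripts were unique to the gene, so that reads could be split or lost among copies. All 24 are uncertain for this reason, among them Hist1h2ap (7.63% unique), the member with most UMIs, Hist1h2br (13.1%), Hist1h4m (11.5%) and Hist1h3h. Others named below include Hist1h2ao (7.16%), Hist1h2ah (10.4%), Hist2h3b (22.3%), Hist1h3i (27.3%) and Hist1h2af (33.5%). The same holds for Hist1h4k (34.1%), Hist1h3b (42.6%), Hist1h2ab (46.4%) and Hist1h3e (49.8%). Hist1h1e also overlaps Hist1h2be on the same strand, and Hist3h2a overlaps Trim17.

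Histone messages were lower than control in the Mll3-labelled library and higher in the other mutant libraries. Summed over the 62 members, they took 7975 CPM in control (95% interval 7958 to 7992), 5690 (5675 to 5705) in Mll3, 9898 (9879 to 9916) in Mll4 and 12678 (12646 to 12710) in Mll3/4. The log2 ratios to control were -0.49, 0.31 and 0.67. The Mll3 and Mll3/4 ratios stayed on the same side under every alternative tried, between -0.59 and -0.40 and between 0.52 and 0.90. The Mll4 ratio stayed above 0 but was 0.08 when each cell was given equal weight and 0.13 without Hist1h2ap.

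A few genes made up most of this sum. Hist1h2ap, an H2A gene, held 33.5%, 29.3%, 41.5% and 38.4% of member UMIs in control, Mll3, Mll4 and Mll3/4. With the linker genes Hist1h1b and Hist1h1e and the H2A gene Hist1h2ae it held 65.9% to 71.3% in each library. Hist1h2ap stood at 2671 CPM in control, 1669 in Mll3, 4111 in Mll4 and 4864 in Mll3/4. Hist1h2ae followed the same order, with 804, 485, 882 and 920 CPM. The linker genes did not: Hist1h1b stood at 1132, 1183, 983 and 1635, and Hist1h1e at 914, 718, 547 and 1618 CPM, lowest in the Mll4-labelled library.

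In the Mll3-labelled library the core histones were lower than control. H2A stood at 3924 CPM in control and 2445 in Mll3 (log2 ratio -0.68, interval -0.69 to -0.68), H2B at 422 and 288 (-0.55), H3 at 578 and 321 (-0.85, interval -0.87 to -0.83) and H4 at 423 and 286 (-0.57). H1 differed least, at 2628 and 2351 (-0.16, interval -0.17 to -0.15). Of the 62 members 10 were above control, against 63.4% of the 18519 genes, and their median log2 ratio was -0.69 against 0.11 for all genes. A log2 ratio of -1 or less, the fold used as a threshold, was reached by 3 members against 6.06% of all genes, and 1 or more by none against 8.5%. Most members thus lay below control by less than the fold. Neutrophil genes were also lower in this library (208 against 534 CPM, and 373 against 926 in dividing cells), and their part in the result was not tested.

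Of these, Hist1h2af (H2A) stood at 12.3 CPM in control and 5.79 in Mll3 (log2 ratio -1.09) and Hist1h3i (H3) at 13.9 and 6.72 (-1.05). Hist1h4m (H4) had 145 UMIs in control and 2 in Mll3, a log2 ratio of -5.69 with a counting interval of -9.07 to -4.13. It has 88.5% of its 90-base windows in common with Hist1h4n, a second H4 gene in the same cluster, which had 433 and 302 UMIs. The pair together stood at 5.32 and 3.16 CPM (log2 ratio -0.75, interval -0.96 to -0.55), close to the ratio of the H4 class, so the value of Hist1h4m alone is not a measure of that gene. The highest ratios were sought among members with at least 50 UMIs in either library. They belonged to Hist3h2ba (H2B, 11.5 and 16.5 CPM, 0.52), Hist3h2a (H2A, 19.5 and 25, 0.36) and Hist2h4 (H4, 3.26 and 4.00, 0.29), none of them in the chromosome 13 cluster.

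**Figure D1:**
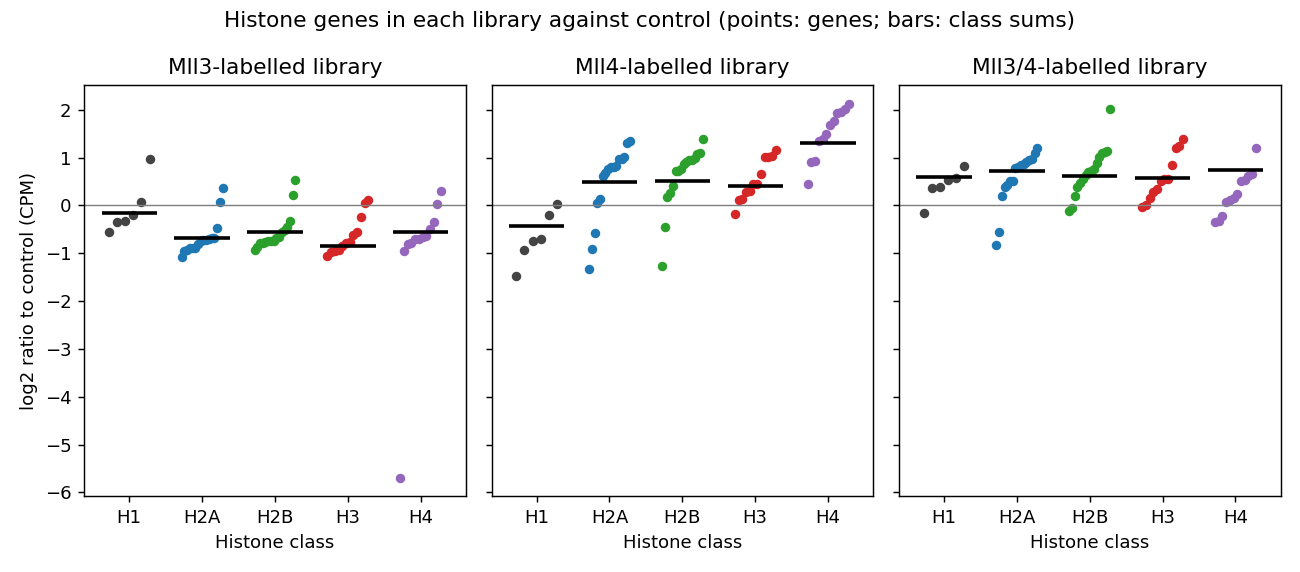
Each point is 1 member, placed by histone class, and its height is the log2 ratio of CPM to the control library (0.5 UMIs added); the black bars are the ratios of the class sums. Most points lie below 0 in the Mll3-labelled library and above 0 in the other libraries, H4 bars and points stand highest in the Mll4-labelled library with the H1 bar at -0.43, and the low point at -5.69 is Hist1h4m.

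In the Mll4-labelled library H4 was highest relative to control and H1 was lower. H4 stood at 423 CPM in control and 1042 in Mll4 (log2 ratio 1.30, interval 1.29 to 1.32), H2A at 3924 and 5535 (0.50), H2B at 422 and 601 (0.51) and H3 at 578 and 767 (0.41). H1 stood at 2628 and 1952 (-0.43, interval -0.44 to -0.42). Over the alternatives the H4 ratio lay between 1.08 and 1.53 and the H1 ratio between -0.63 and -0.18. All 12 H4 genes were above control, 9 of them by a log2 ratio of 1 or more, a size reached by 19 of 62 members and by 17.7% of all genes. Above 0 were 51 members, against 47.2% of all genes, with medians of 0.78 and -0.04. A ratio of -1 or less was reached by 3 members, against 9.22% of all genes.

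Hist1h4d stood at 151 CPM in control and 512 in Mll4 (log2 ratio 1.76) and Hist1h4h at 185 and 351 (0.93), the 2 H4 genes with most UMIs. Hist1h4f had 51 and 231 UMIs (2.13), Hist1h4k 238 and 986 (2.01) and Hist1h4m 145 and 577 (1.95). Hist1h4k had 34.1% of its 90-base windows unique. Hist1h4m is again not measured apart from Hist1h4n, and the pair together stood at 5.32 and 20.4 CPM (1.93). The lowest ratios were sought among members with at least 50 UMIs in either library. They belonged to Hist1h2ac (H2A, 60.1 and 24.1 CPM, -1.32), Hist3h2ba (11.5 and 4.80, -1.26) and Hist1h1a (H1, 150 and 78.0, -0.94). Markers of mature cells were high in this library, as given above. Without the cells that carried mast, monocyte, mature B or lymphoid markers the H4 ratio was 1.08 and the H1 ratio -0.63, and Hist1h2ac stood at -1.21. Cells with neutrophil genes were not removed by that step. Neutrophil genes stood at 3550 CPM against 534 in control (4679 against 926 in dividing cells), and their part in the H4 and H1 ratios was not tested. The direction given here is that of the library labelled Mll4, whose Kmt2d level was near control.

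In the Mll3/4-labelled library the sum of every class was higher than control, by a similar amount. The medians over single members were less alike, at 0.46 for H1, 0.79 for H2A, 0.70 for H2B, 0.52 for H3 and 0.20 for H4. H1 stood at 2628 CPM in control and 3981 in Mll3/4 (log2 ratio 0.60), H2A at 3924 and 6484 (0.72), H2B at 422 and 650 (0.62), H3 at 578 and 854 (0.56) and H4 at 423 and 710 (0.75). Above 0 were 53 members against 43.5% of all genes, with medians of 0.54 and -0.13. A ratio of 1 or more was reached by 11 members against 16.9% of all genes, and -1 or less by none against 22.6%. The summed ratio covers fewer dividing cells than in control (30.8% against 39.4%), and within dividing cells it was larger (0.98). Other cell markers moved in the same library. B-cell progenitor genes stood at 11571 CPM against 30.4 in control and neutrophil genes at 2.54 against 534 (1.61 against 926 in dividing cells). Their part in the result was not tested, and Kmt2d was near control in this library too.

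Hist3h2ba had the highest ratio, at 11.5 CPM in control and 46.7 in Mll3/4 (log2 ratio 2.02). Among members with at least 50 UMIs in either library, it was followed by Hist2h3b (H3, 9.71 and 22.9, 1.24) and Hist1h4d (151 and 348, 1.20). Hist1h2ac was lowest at 60.1 and 33.6 (-0.84), followed by Hist1h2ao (H2A; 71 and 21 UMIs, -0.56, with an interval that spans 0) and Hist1h4a (H4; 16.2 and 12.8 CPM, -0.34). Hist1h2ac was thus among the lowest members in both libraries labelled with Mll4 deletion, while in Mll3 it stood at 62.7 against 60.1 in control. Of H3 and H2B, the genes with most UMIs were Hist1h3c (186, 96.6, 253 and 264 CPM in control, Mll3, Mll4 and Mll3/4), Hist1h3e (131, 67.1, 178 and 166), Hist1h2bc (94.5, 75.7, 69.2 and 86.5) and Hist1h2br (49.5, 29.1, 95.9 and 77.3). Hist1h2bc, unlike its class, was highest in control.

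The balance of linker to core messages separated the libraries. H1 UMIs per 100 core UMIs were 49.2 in control, 70.4 in Mll3, 24.6 in Mll4 and 45.8 in Mll3/4. In dividing cells alone the order was the same, at 47.7, 70.1, 24.1 and 42.4. In resting cells they were 73.2, 75.3, 32.6 and 121, so that Mll3 was near control there and Mll3/4 was highest. The Mll4-labelled library was lowest in both states.

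To set dividing against resting cells, each cell was thinned to 3000 UMIs and scored on 20 G2/M genes (such as Mki67, Top2a and Ccnb1), none of them a histone gene. Cells with at least 2 such UMIs were called dividing and cells with none resting. Dividing cells made up 39.4% of control, 40.4% of Mll3, 39.4% of Mll4 and 30.8% of Mll3/4 cells. The sums over each library's dividing and resting cells were compared with edgeR's quasi-likelihood test with the library as a term, adjusted by Benjamini-Hochberg over 15411 genes, so that the 4 libraries served as replicates of the difference. The 2 states also differed in depth: dividing cells had a median of 20812, 20873, 37953 and 13077 UMIs in control, Mll3, Mll4 and Mll3/4, and resting cells 11328, 11884, 12757 and 7521.

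Nearly every histone gene was higher in dividing cells, by a median of 3.46 on the log2 scale. Of 61 members tested (Hist1h1t had too few UMIs) 58 were higher in dividing cells by the edgeR quasi-likelihood test at an adjusted p under 0.05, against 15.3% of all genes, and 0 were lower, against 13.7%. At an unadjusted p under 0.05 all 61 were higher. DESeq2 called 59 higher and 0 lower, against 2592 higher and 2816 lower of all 15411 genes. With all 62 tested the count was again 58. A log2 fold change of 1 or more was reached by 57 of those called, against 4.52% of all genes. In the single libraries 60 of 62 members were above 0 in all 4. For this count and the one at an unadjusted p, the share of all genes was not worked out. Leaving out each library in turn left 54 to 59 called. Of all genes, those fits called from 960 of 15015 (without Mll3) to 2473 of 15167 (without Mll3/4) higher.

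Summed over members, histone messages took 14121 CPM in dividing and 1234 in resting cells of control. They took 9866 and 1049 in Mll3, 15255 and 1434 in Mll4, and 27782 and 1493 in Mll3/4. The ratios were 11.4-fold, 9.41-fold, 10.6-fold and 18.6-fold. The resting levels lay within a narrow range and the dividing levels did not.

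By class, the median log2 fold changes were 2.93 for H1 (5 of 5 tested called), 4.38 for H2A (14 of 16), 4.14 for H2B (15 of 16), 3.66 for H3 (12 of 12) and 2.78 for H4 (12 of 12). Hist1h3b (H3) had the highest, 7.04 ± 0.52 (SE), with 148, 85.2, 135 and 414 CPM in dividing and 0.621, 0.595, 3.43 and 1.61 in resting cells of control, Mll3, Mll4 and Mll3/4. It was followed by Hist1h2af (6.68), Hist1h3c (6.45 ± 0.37), Hist1h2ah (6.12) and Hist1h2ab (5.82 ± 0.35). Of these and Hist1h3b, only Hist1h3c had most of its 90-base windows unique (68.4%). Hist1h2ah rests on few resting UMIs (0, 0, 3 and 2, against 133, 61, 268 and 114 in dividing cells), so its fitted value depends on the prior count. Hist1h2ap stood at 4904, 3005, 6465 and 11238 CPM in dividing cells and at 218, 180, 391 and 131 in resting cells (4.80 ± 0.46). Of the H1 genes Hist1h1b had 5.77 ± 0.25 and Hist1h1c only 1.85 ± 0.14.

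**Figure D2:**
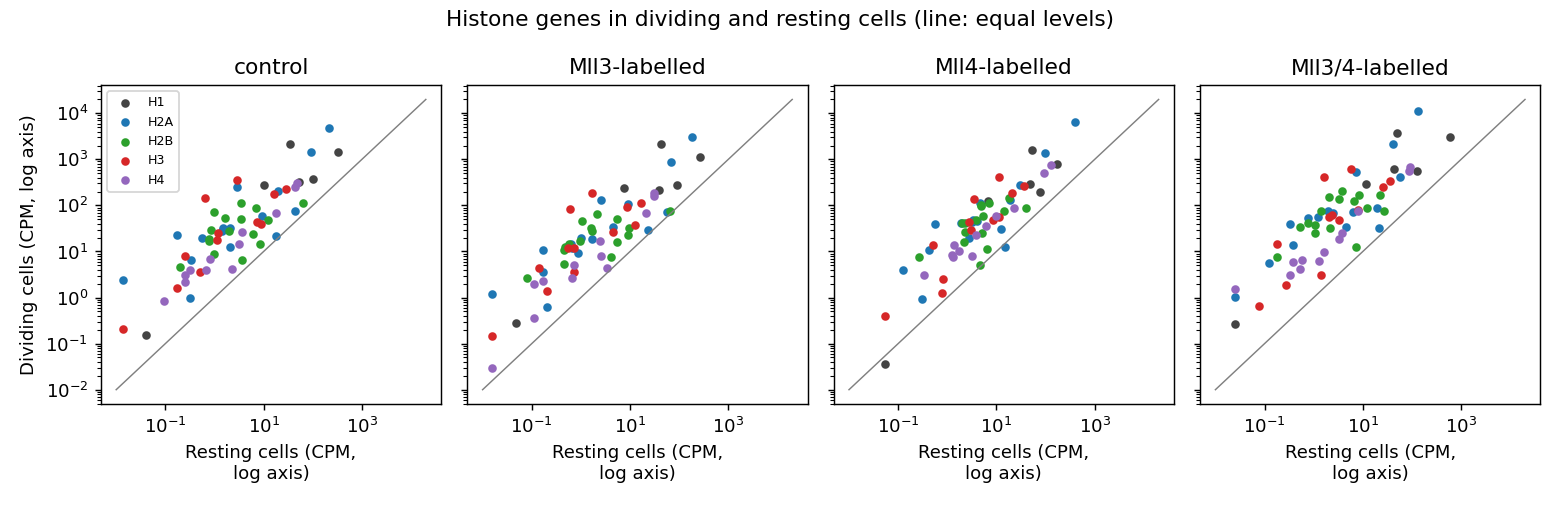
Each point is 1 member in 1 library, with CPM in resting cells across and in dividing cells up (log axes, 0.5 UMIs added), coloured by histone class; the line marks equal levels. Nearly all points lie above the line in each library, and the points nearest to it are those of the members with a small fold change, such as Hist3h2a.

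A few members differed little between the states. Hist3h2a stood at 21.5 CPM in dividing and 17.6 in resting cells of control, 28.9 and 22.9 in Mll3, 12.5 and 14.6 in Mll4, and 32.3 and 20.9 in Mll3/4. Its log2 fold change was 0.34 ± 0.13 and did not pass the edgeR test (adjusted p = 0.109). Hist2h2be (H2B) had 6.52 and 3.70, 7.76 and 4.13, 11.4 and 6.43, and 12.5 and 7.16 CPM in dividing and resting cells, with a log2 fold change of 0.92 ± 0.10 (edgeR adjusted p = 0.0029). It was higher in dividing cells by nearly the same ratio in each library. Hist3h2ba had 1.08 ± 0.22 (adjusted p = 0.017) and Hist2h4 1.34 ± 0.34 (adjusted p = 0.035) in the same test. The calls of both were lost without the control library (adjusted p = 0.064 and 0.096) or without the Mll3-labelled library (0.078 and 0.051), and that of Hist2h4 also without the Mll4-labelled library (0.070).

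The neighbours Hist1h2ac and Hist1h2bc, which start 251 bases apart on opposite strands of chromosome 13, varied between libraries. Hist1h2ac stood at 75.6 CPM in dividing and 43.0 in resting cells of control, 71.2 and 57.0 in Mll3, 31.3 and 12.6 in Mll4, and 70.2 and 6.30 in Mll3/4. Hist1h2bc stood at 111 and 64.1, 77.1 and 65.7, 86.6 and 40.6, and 171 and 22.5. In both genes the resting level was lowest in Mll3/4. Their fold changes over the 4 libraries, 1.46 ± 0.49 and 1.30 ± 0.42 on the log2 scale, did not pass the edgeR test (adjusted p = 0.071 and 0.064).

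The median fold change was lower among members with long annotated 3′ ends. Of 15 members with over 500 annotated bases after the coding sequence 6 had a log2 fold change below 2, and their median was 2.29. Of 46 with 500 or fewer, 1 (Hist3h2ba) was below 2, and the median was 4.05. Among the long ones were Hist3h2a (1700 bases), Hist1h2ac (2058), Hist2h2be (2192) and Hist2h4 (1311). The groups were formed on an annotation and not on reads, copies within a cluster are not independent, and no test was made. Members whose stem-loop match was followed by over 100 annotated bases had a median of 2.35 (20 members), against 3.86 where 100 or fewer followed (20 members) and 4.41 with no match (21 members).

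**Figure D3:**
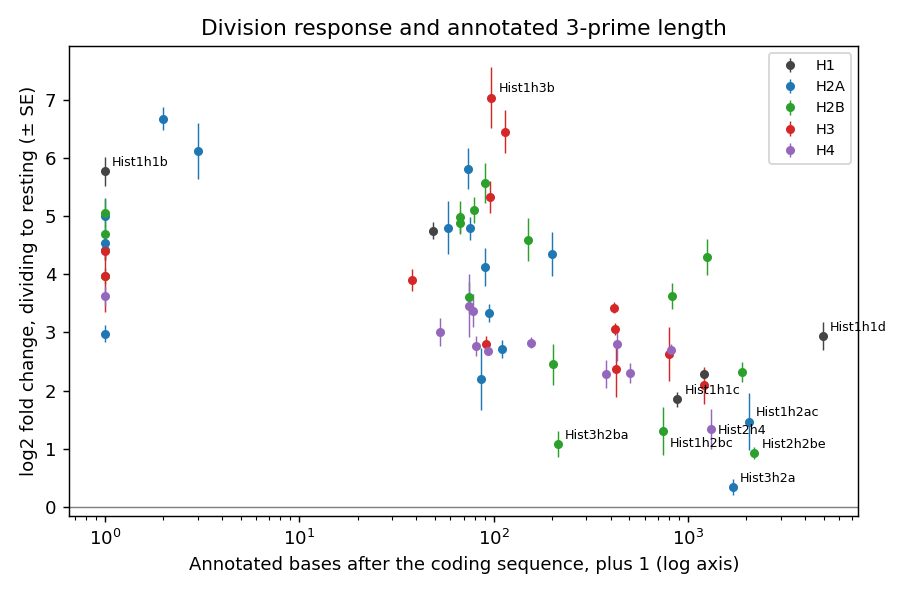
Each point is 1 of 61 members, with annotated bases after the coding sequence plus 1 across (log axis) and the log2 fold change between dividing and resting cells up, with its SE, coloured by class. Among members beyond about 500 bases the values run from 0.34 (Hist3h2a) to 4.30, and among shorter ones from 1.08 (Hist3h2ba) to 7.04 (Hist1h3b).

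Of 11 pairs of members that start near each other on opposite strands, 10 joined an H2A to an H2B gene by a gap of 176 to 302 bases. Partners had like fold changes in some pairs, such as Hist1h2ag and Hist1h2bj (4.79 and 4.89), and unlike ones in others, such as Hist2h2ac and Hist2h2be on chromosome 3 (3.33 and 0.92). Hist1h2ae and Hist1h2bg had 4.35 and 2.45.

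Within the states as called by G2/M UMIs, the Mll3 and Mll3/4 libraries differed from control more in dividing than in resting cells. In dividing cells the summed members stood at a log2 ratio to control of -0.52 in Mll3, 0.11 in Mll4 and 0.98 in Mll3/4. In resting cells the ratios were -0.23, 0.22 and 0.27. The Mll3/4 ratio in dividing cells was thus larger than over all its cells, and the Mll4 ratio was small in both states. The dividing cells themselves were not alike between libraries. Their 20 G2/M genes summed to 4560 CPM in control, 5129 in Mll3, 3946 in Mll4 and 6768 in Mll3/4. A list of 20 S-phase genes summed to 2722, 3190, 2190 and 2594 CPM in the same order. The part of these differences in the histone ratios was not tested.

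In dividing cells of Mll3, 7 of 62 members were above control, against 64.1% of all genes. Of the 62, 5 reached -1 or less, against 6.42% of all genes, and none 1 or more, against 9.43%, with a median of -0.71. In Mll3/4, 58 were above control, against 45.7% of all genes, and 24 reached 1 or more, against 19.7%, with a median of 0.84. The sums of H1, H2A, H2B, H3 and H4 stood there at 0.86, 1.06, 1.01, 0.85 and 1.01, so the class sums were alike. The medians over single members were 0.83, 1.06, 0.97, 0.81 and 0.53 in the same order. In Mll4, 46 were above control, against 42.9% of all genes, and 12 reached 1 or more, against 15%. Of these 12, 9 were H4 genes, and the H4 ratio was 1.13, with H1 at -0.62 and the other classes between 0.19 and 0.39. The high H4 and low H1 of this library were therefore also seen within dividing cells, of which 30.6% carried mature-cell markers.

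In resting cells the class sums of Mll3/4 differed from control in different directions. H1 was higher than control (817 against 522 CPM, log2 ratio 0.65) and so were H4 (196 against 121, 0.70) and H3 (85.8 against 67.0, 0.36). The sums of H2A (294 against 409, -0.48) and H2B (99.7 against 116, -0.22) were lower. Most single members of H2A and H2B were not: 11 of 16 H2A genes (median 0.47) and 11 of 16 H2B genes (median 0.21) were above control. Of all genes 43% were above control. Hist1h2ap, at 131 against 218, and Hist1h2ac, at 6.30 against 43.0, were among the lower H2A genes, and Hist1h1e had 11648 UMIs against 11998 in control at a lower depth (log2 ratio 0.86). A log2 ratio of 1 or more was reached by 14 members against 14.9% of all genes, and -1 or less by 9 against 24.1%. In resting cells of Mll4, 28 members reached 1 or more, against 20.5% of all genes, and 74.3% of those cells carried mature-cell markers. In resting cells of Mll3, 11 reached -1 or less, against 8%, and none reached 1 or more, against 9.12%.

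A second list, of 20 S-phase genes such as Mcm2 and Pcna, split the cells further. Cells with at least 8 S UMIs after thinning were called S high and cells with at most 1 S low. In control the summed members stood at 1333 CPM in S low cells with no G2/M UMI and at 916 in S high cells with none. They stood at 14159 in S high and 7838 in S low cells with 2 or more G2/M UMIs. Histone messages were thus high where G2/M genes were found and, among those cells, higher with S genes. S high cells without G2/M UMIs had no more than S low ones in control, Mll3 (899 and 1056) and Mll3/4 (1009 and 1717), and more in Mll4 (1726 and 1274, the S high value from 93 cells).

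The classes did not follow S genes equally among the cells with G2/M UMIs. In control H1 stood at 4725 CPM in S high and 2294 in S low cells, H2A at 7214 and 3785 and H3 at 988 and 589. H4 differed less (628 and 504), and H2B was slightly lower in S high cells (602 and 666). H2B was also lower in S high cells in Mll3 (386 and 450) and Mll3/4 (1171 and 1332), and higher in Mll4 (911 and 564). When cells were split by the S list alone, 51 of 60 members tested were higher in S high cells, against 17.7% of all genes. One member was lower, Hist3h2a, against 15.2% of all genes (log2 fold change -1.14, edgeR adjusted p = 0.0011).

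**Figure D4:**
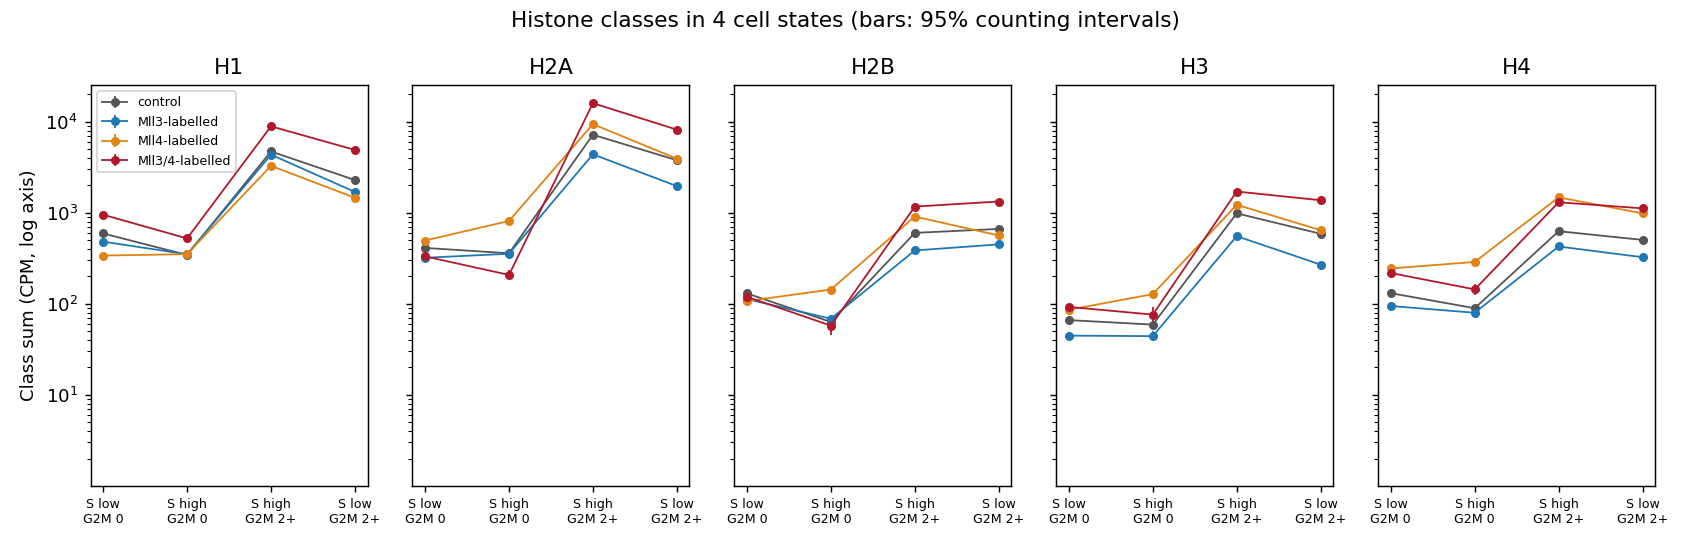
Each panel is 1 histone class, with 4 states across (low or high in S genes; none or at least 2 G2/M UMIs) and the summed CPM up (log axis), 1 line per library, with 95% counting intervals. In all 5 classes the values with G2/M UMIs lie above those without, and the Mll3/4-labelled line rises most from left to right in H2A.

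The surface antibodies counted beside the RNA were used to gate cells. On the centred log ratio of the antibody counts, cells positive for CD135 and negative for CD150 were gated as MPP4. Cells negative for CD135 were HSC if positive for CD150 alone, MPP1 if negative for CD150 and CD48, MPP2 if positive for both, and MPP3 if positive for CD48 alone. The HSC, MPP1, MPP3 and MPP4 gates had at least 100 cells in each library and were compared. MPP2 (99 cells in Mll3/4) and cells positive for both CD150 and CD135 (24 in Mll4, but 1594 of 4568 in Mll3/4) fell below that minimum. Dividing cells of control held similar levels in each gate, at 13046 (HSC), 13415 (MPP1), 14227 (MPP3) and 13360 (MPP4) CPM. The shares of dividing cells in control were less alike, at 23.9%, 21.1%, 51.9% and 38.4%. In each of the 4 gates the dividing cells of Mll3 were below control, at 9251 to 10636, and those of Mll3/4 above it, at 25240 to 31885. Those of Mll4 were above control by less, at 14338 to 16530. Resting cells of the 4 gates lay between 988 and 1714 CPM in all libraries. The gates under the minimum did not all keep this order. Dividing MPP2 cells stood at 16984 CPM in control, 8783 in Mll3, 17257 in Mll4 and 10737 in Mll3/4, the last from 20 cells and below control. Dividing cells positive for CD150 and CD135 stood at 14395, 8717, 11310 and 24498, with Mll4, from 5 cells, below control. The order of the libraries was thus the same in the 4 larger gates and not in the others, with the limit that the gates were set from 1 threshold per antibody for all libraries. The 4 gates of the Mll3/4-labelled library hold 156 (MPP1) to 2060 (MPP4) cells.

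**Figure D5:**
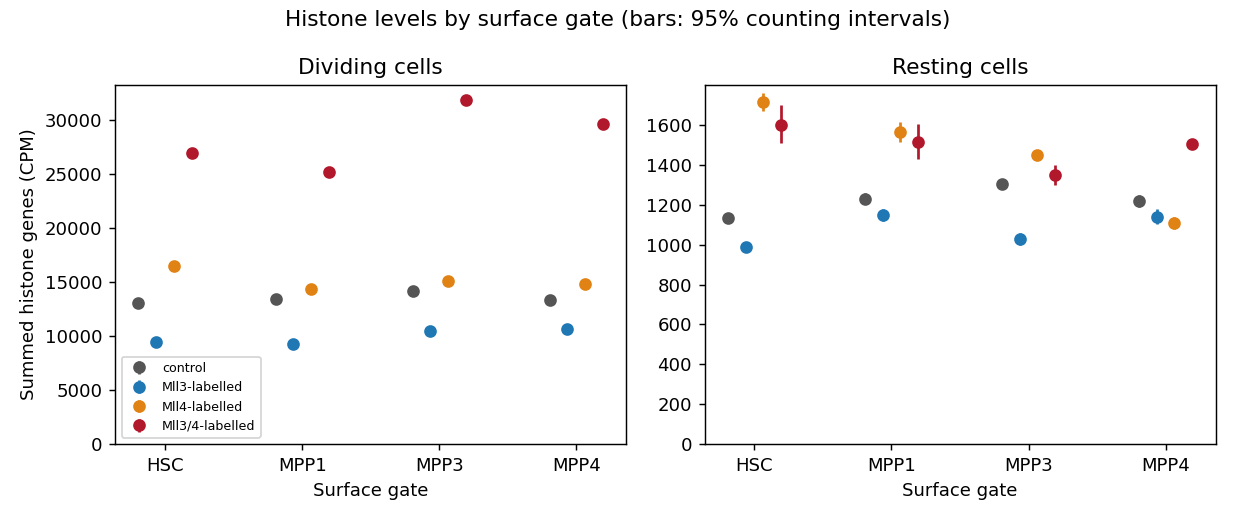
Summed histone CPM in dividing (left) and resting (right) cells of 4 surface gates, 1 point per library with 95% counting intervals; both axes start at 0 and differ in scale. In dividing cells the libraries keep the order Mll3, control, Mll4, Mll3/4 in each of the 4 gates drawn, from 9251 to 31885.

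The genes that make and use histone messages were less tied to division. Of 22 histone mRNA processing and control genes, 16 were higher in dividing cells and 0 lower by the edgeR test, against 15.3% and 13.7% of all genes. Their median log2 fold change was 0.55, against 3.46 for the members. At an unadjusted edgeR p under 0.05 there were 20 of 22 in either direction, among them Lsm10, which was lower in dividing cells (-0.21). The share of all genes at that threshold was not worked out. The largest were Ccne2 (2.65) and Ccne1 (2.33), cyclins that activate CDK2 at S-phase entry, and Zfp473 (1.63), a U7-associated factor. The smallest called were Ncbp2 (0.26), of the cap-binding complex, Sympk (0.30) and Cpsf2 (0.48), of the cleavage complex. Slbp, the stem-loop binding protein, had 1.16, and Npat, the coactivator of histone transcription, had 0.53. Of 19 histone chaperones 15 were higher and 0 lower (all genes: 15.3% and 13.7%), led by Asf1b (3.54), Chaf1a (1.49) and Anp32e (1.46), with Atrx (0.28), Ubn1 (0.35) and Hira (0.41), which serve replication-independent deposition of H3.3, as the smallest called.

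All 11 replication-independent histone variants were higher in dividing cells by the edgeR test, against 15.3% of all genes, with a median log2 fold change of 0.85. Cenpa, the centromeric H3, had 4.12, H2afx 3.54 and H2afz 2.09, and the smallest were H3f3b (0.34), H3f3a (0.39) and H2afj (0.44). Over whole libraries the 11 variants summed to 9578 CPM in control, 10989 in Mll3, 6097 in Mll4 and 8841 in Mll3/4. The order of these sums was thus not that of the replication-dependent members: the Mll4-labelled library was lowest and Mll3 highest. Of the 11, 8 were above control in Mll3, 1 in Mll4 and 8 in Mll3/4, against 63.4%, 47.2% and 43.5% of all genes. Their median log2 ratios were 0.30, -0.66 and 0.21. The Mll3/4 sum thus lay below control although most of its single variants lay above. The processing genes summed to 1089, 1198, 951 and 1134 CPM, and Slbp stood at 123, 142, 106 and 177. Ccne1 stood at 5.63, 8.56, 11.9 and 40.4 and Ccne2 at 12.8, 14.6, 42.2 and 43.2 CPM.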

How the data were processed

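The deposited files hold raw UMI counts per gene and cell and per antibody from 10x Genomics 3′ version 3.1 libraries, made with Cell Ranger 6.1.1 per the file headers and the submitters' processing notes. Kept barcodes had 1000 or more genes and no more than 10% mt- UMIs. Scrublet called 3, 3, 171 and 1 doublets in control, Mll3, Mll4 and Mll3/4, too few in 3 libraries to count as a working call, so the highest scores were removed at 0.8% of cells per 1000 cells (180 to 423 cells). UMIs were summed per library, state or gate and given as CPM, with exact 95% Poisson intervals. Ratios had 0.5 UMIs added and exact conditional intervals. The fit used edgeR 4.0.16 (TMM, filterByExpr) and was tested on simulated data; DESeq2 1.42.0 was an alternative. Other tools were R 4.3.3, Python 3.11.15, scipy 1.17.1 and scanpy 1.11.5. Named genes were the 2 members with most UMIs per class, the 3 highest and 3 lowest ratios per mutant library among members with at least 50 UMIs in either library, the 5 highest and 5 lowest fold changes, the members at the UMI minimum, and the 3 highest and lowest called of each list; a few others were named after their values were seen. Members and lists were chosen with earlier results of these data known. Coordinates are from GENCODE vM21 on GRCm38. One list of markers of other cells is not reported here.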

Additional observations from a re-analysis of the deposited data

Results flagged for a closer look

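Hist3h2a was lower in dividing than in resting cells of the Mll4-labelled library (log2 ratio -0.23, counting interval -0.40 to -0.05) and higher in dividing cells of the other 3 libraries (0.29 in control, 0.34 in Mll3 and 0.63 in Mll3/4). The difference between the libraries was not tested, since each genotype has 1 library.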

How the results depend on the processing

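The direction of the summed histone ratio to control, and of each class ratio, held under every alternative. For Mll3 (-0.49) the ratio was -0.48 without doublet removal, -0.53 with at least 2000 genes and at most 5% mt- UMIs, -0.42 with cells given equal weight, -0.40 without Hist1h2ap, and -0.59 with TMM and with median-of-ratios scaling. For Mll4 (0.31) it was, in the same order, 0.32, 0.12, 0.082, 0.13, 0.36 and 0.36, with 0.57 when cells with mature-cell markers were left out and 0.13 with states weighted to the control shares. For Mll3/4 (0.67) it was 0.73 with the stricter filter, 0.66 without mature-marker cells, 0.52 with equal weight, 0.90 with states weighted, 0.56 without Hist1h2ap, 0.77 with TMM and 0.79 with median-of-ratios scaling. Where the alternative's construction does not show it, the cause was not tested. The number of members higher in dividing cells (58) ran from 51 with the S-list split to 59, and from 54 to 59 with a library left out. With the S-list split 4 members turned negative: Hist1h2bc (-0.44), Hist3h2ba (-0.36), Hist2h2be (-0.082) and Hist3h2a (-1.14). Of 186 member ratios to control, 24 changed sign under some alternative, and 1 of these was 0.5 or more from 0 in the main setting. That was Hist1h3h in Mll4, with 28 UMIs, which stood at 1.15 and at -0.084 with equal weight. The comparison of genotypes could not be paired because each genotype has 1 library. The fit of dividing against resting cells was paired by library, which entered as a term.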
